A study of Mus musculus with 8 samples.

Results

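Mouse embryonic stem cells that lack menin (menin-null mESCs) were differentiated into cells that resemble pancreatic islet endocrine cells, named PILECs, and this course was followed on 4 arrays, 2 of menin-null mESCs and 2 of menin-null PILECs, out of 8 in the whole series. The 4 arrays were taken by their labels, Men1-KO and cell type, and each of 18193 genes was represented by the probe set with the highest mean over all 8 arrays. The other 4 arrays held wild-type mESCs and wild-type PILECs, 2 each, and were used to ask where the change over differentiation differed between the genotypes. All cells had the genetic background 129S6/SvEvTac. The wild-type cells were the line TC1 and the menin-null cells were the line 3.2N, which carries the Men1-KO genotype, so each genotype was represented by a single line and genotype and line cannot be told apart. The mESCs were kept with leukemia inhibitory factor, first on irradiated feeder cells and then freed of them. For PILECs the same lines were taken through embryoid bodies, a serum-free stage with ITS-A supplement, expansion with N2, B27 and FGF, and a last stage with nicotinamide. The 2 arrays of a group came from separate cultures according to the methods of the study.

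Menin, the product of Men1, is a nuclear scaffold protein that is lost in the endocrine tumors of multiple endocrine neoplasia type 1. It is a subunit of the histone methyltransferase complexes built around the MLL proteins, which place trimethyl marks on lysine 4 of histone H3 at active promoters, and Hox genes are the best known targets of these complexes. As stem cells leave the pluripotent state they normally lose the Oct4, Nanog and Sox2 network and divide more slowly, and cells of the islet lineage gain transcription factors such as Pdx1, Nkx6-1 and Neurod1, peptide granule proteins and finally hormones.

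The signal of Men1 was low in all menin-null arrays. It was 7.77 and 7.82 in menin-null mESCs and 7.95 and 8.02 in menin-null PILECs on the deposited log2 scale, against 9.90 and 9.97 in wild-type mESCs and 10.06 and 9.92 in wild-type PILECs. The groups of the 2 genotypes did not overlap, with a 4.42-fold lower signal in menin-null mESCs (adjusted p = 7.07e-05) and a 4.01-fold lower signal in menin-null PILECs (adjusted p = 7.38e-05), and whether this probe set lies in the deleted part of the gene is not known here. Between mESCs and PILECs of the menin-null line Men1 differed by 0.19 ± 0.09 log2 units (± SE throughout, 2 arrays a group), which did not pass the test (adjusted p = 0.0799). Arrays of 1 group correlated across genes at 0.993 to 0.997, and the spread of the gene differences within a pair was widest for menin-null mESCs (SD of 0.286) and next for menin-null PILECs (SD of 0.211). No count or depth lies behind an array signal, so the precision rests on 2 arrays a group.

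A large part of the measured transcriptome changed between menin-null mESCs and menin-null PILECs. Of 18193 genes, 11830 (65.0%) passed an adjusted p of 0.05, with 5258 (28.9%) higher in PILECs and 6572 (36.1%) lower. Most of these changes were under 4-fold, since 1071 genes were at least 4-fold higher and 1177 at least 4-fold lower, and 33 and 7 genes reached 64-fold. Signals of 2101 of the called genes stayed under 7 log2 units in both cell types, a limit set here below which a signal was treated as dim. A further 1166 genes crossed that limit upward and 1008 downward. Bulk cultures were measured, so fewer cells of a type and less RNA per cell cannot be told apart.

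Many of the genes with the largest rises are known from neural and mesenchymal cells, and many of those with the largest falls from stem cells. Gpm6a, a membrane glycoprotein of neurons, went from 4.52 and 5.09 in the menin-null mESC arrays to 13.10 and 13.26 in the menin-null PILEC arrays, a change of 8.37 ± 0.18 log2 units. Fabp7, the fatty acid binding protein of radial glia, went from 5.14 and 4.81 to 13.29 and 13.36, and Col3a1, a fibrillar collagen, from 5.07 and 5.01 to 13.49 and 13.19. The other genes among the 15 largest rises were Dcx (7.72), Nnat (7.35), Islr (7.33), Igfbp5 (7.14), Cdh11 (7.12), Plagl1 (7.04), Ednrb (6.99), Zic1 (6.84), Dcn (6.73), Chl1 (6.65), Scg2 (6.62) and Ptn (6.60), each as a log2 change. Among them are a neuronal microtubule protein (Dcx), an adhesion protein of axons (Chl1), a matrix proteoglycan (Dcn) and a granin (Scg2). Among the falls, Tdgf1, the Nodal co-receptor of stem cells, went from 12.93 and 12.92 to 5.70 and 6.09 (-7.03 ± 0.13). The other 14 were Nr0b1 (-6.93), Dppa2 (-6.74), L1td1 (-6.57), Fgf4 (-6.57), Morc1 (-6.49), Mymx (-6.25), Cth (-5.88), Zfp936 (-5.87), Eras (-5.81), Rpl39l (-5.67), Tcl1 (-5.62), AU018091 (-5.59), Esrrb (-5.58) and Pou5f1 (-5.57), all in log2 units. Many of these rises start and many of these falls end in the dim range, where the size of a change is uncertain. These 30 genes were taken among those whose menin-null arrays did not overlap between the cell types, a condition of the choice that 35.4% of all genes met with PILECs above and 43.6% with PILECs below, and each call was kept when any 1 of the 8 arrays was left out.

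**Figure D1:**
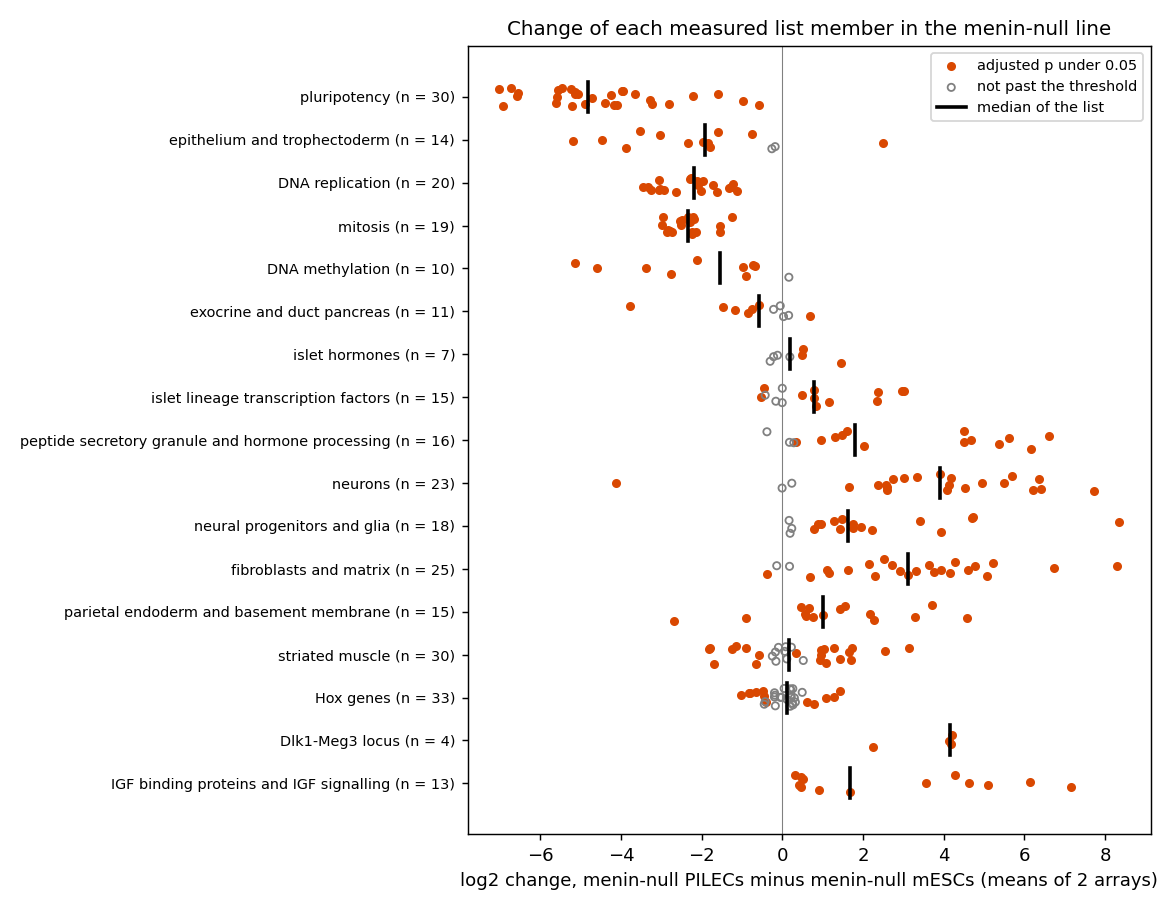
Log2 change from menin-null mESCs to menin-null PILECs (x axis) for every measured gene of 17 gene lists (rows), with 1 point per gene from means of 2 arrays, filled where the adjusted p was under 0.05 and a bar at the list median. Pluripotency genes all lie left of zero with a median of -4.81, neurons lie mostly to the right with a median of 3.89, and Hox genes crowd around zero with a median of 0.11.

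All 30 measured pluripotency genes fell in the menin-null line, with a median change of -4.81 log2 units against a median of -0.07 over all genes. Pou5f1, which encodes Oct4, was at 13.65 and 13.67 in the menin-null mESC arrays and at 8.03 and 8.15 in the PILEC arrays (-5.57 ± 0.12, adjusted p = 2.89e-08). Nanog went from 12.68 and 12.79 to 7.94 and 8.07 and the naive state factor Zfp42, or Rex1, from 13.69 and 13.68 to 8.52 and 8.36. Sox2 moved least, from 12.40 and 12.40 to 11.76 and 11.90 (-0.57 ± 0.09, adjusted p = 4.71e-04), and is also a factor of neural progenitors. The signals of 17 of the 30 genes, Pou5f1 and Nanog among them, were still at or above 7 in menin-null PILECs. Genes of the primed epiblast and early germ layers moved both ways, with 4 of 15 higher and 4 lower, where 28.9% of all genes rose and 36.1% fell. Lhx1 rose (2.90 ± 0.19) and Dnmt3b fell (-4.60 ± 0.11), whereas Fgf5 was at 5.90 and 5.26 in mESCs and 5.34 and 5.20 in PILECs, dim in both.

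Genes of cell division fell together. All 19 measured mitosis genes and all 20 DNA replication genes were lower in menin-null PILECs, with median changes of -2.35 and -2.19. The kinase Cdk1, which drives entry into mitosis, went from 12.54 and 12.61 to 10.40 and 10.28 (-2.24 ± 0.08), and the replicative helicase subunit Mcm5 from 13.01 and 12.97 to 9.97 and 9.88 (-3.07 ± 0.09). Neither list reached the dim range as a whole, since all 19 mitosis genes and 19 of 20 replication genes still had signals of at least 7. Of 7 CDK inhibitors, 3 rose (Cdkn1b, 1.79 ± 0.09, Cdkn2c, 1.41 ± 0.10, and Cdkn2d, 0.65 ± 0.09) and 2 fell (Cdkn2a, -1.43 ± 0.15, and Cdkn1c, -0.39 ± 0.10). Over all genes 28.9% rose and 36.1% fell. Cdkn1b and Cdkn2c encode p27 and p18, which are known menin-MLL targets in endocrine cells. Of 10 DNA methylation genes 9 fell, led by the de novo methylation cofactor Dnmt3l (-5.15 ± 0.12) and the de novo enzyme Dnmt3b, while the oxidase Tet3 stood at 6.75 and 6.49 in mESCs and 6.97 and 6.58 in PILECs and was not called.

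Among the islet hormones somatostatin rose most. Sst, the hormone of delta cells and of some neurons, was at 6.82 and 6.50 in menin-null mESCs and at 7.89 and 8.32 in menin-null PILECs, a 2.72-fold rise (1.44 ± 0.23 log2 units, adjusted p = 6.23e-04). Both PILEC arrays lay above both mESC arrays, and wild-type PILECs were at 9.30 and 8.81, with a difference between the changes of -0.97 ± 0.32 that did not pass the test (adjusted p = 0.159). The dim members Gcg and Iapp rose by less, Gcg encoding glucagon (4.29 and 4.20 in mESCs, 4.95 and 4.57 in PILECs), and Iapp being islet amyloid polypeptide (4.0 and 4.34 in mESCs, 4.72 and 4.59 in PILECs). The call for Iapp was lost without menin-null PILEC array 1 (adjusted p = 0.0532), and its probe set that is not marked as prone to cross-hybridisation gave -0.21. Ins2, which encodes insulin, stood at 7.28 and 7.09 in mESCs and 7.55 and 7.19 in PILECs, so the arrays overlapped and no change was called (0.18 ± 0.16, adjusted p = 0.341). Ppy, Pyy and Ghrl, the hormones of the remaining islet cell types and their relatives, were not called and stayed under 7, and no probe set was assigned to Ins1 alone.

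The promoters of several genes named here share a short motif. Sst is the hormone that rose most, and Scg2 and Chgb are among the granule genes with the largest rises. Shown are the windows that held the motif among islet hormones, granule genes and the Dlk1-Meg3 locus. The letters TGACGTCA are the cAMP response element, which reads the same on both strands and was first described in the somatostatin promoter. Each sequence is the 150 bases before a RefSeq start on GRCm38.p6, written 5′ to 3′ on the strand of the gene with the motif in capitals.
Sst, chr16:23890845-23890994, minus strand: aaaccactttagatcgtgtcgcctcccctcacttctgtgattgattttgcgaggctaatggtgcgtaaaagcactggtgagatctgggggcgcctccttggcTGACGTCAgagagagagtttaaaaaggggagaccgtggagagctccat
Scg2, chr1:79440027-79440176, minus strand: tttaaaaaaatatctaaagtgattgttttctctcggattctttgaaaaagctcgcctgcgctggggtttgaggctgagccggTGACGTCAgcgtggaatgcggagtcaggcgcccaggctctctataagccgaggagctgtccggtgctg
Chgb, chr2:132781492-132781641, plus strand: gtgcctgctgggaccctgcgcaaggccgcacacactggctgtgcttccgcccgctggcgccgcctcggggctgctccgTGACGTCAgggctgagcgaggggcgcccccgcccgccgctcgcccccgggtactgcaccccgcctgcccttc
Pcsk1, chr13:75089707-75089856, plus strand: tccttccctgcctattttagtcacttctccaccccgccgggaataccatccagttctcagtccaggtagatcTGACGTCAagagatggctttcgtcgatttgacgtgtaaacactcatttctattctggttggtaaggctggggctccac
Meg3, chr12:109540846-109540995, plus strand: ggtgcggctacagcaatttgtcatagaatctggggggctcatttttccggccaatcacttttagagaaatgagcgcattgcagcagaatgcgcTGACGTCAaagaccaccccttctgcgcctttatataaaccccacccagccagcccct
The first base of the motif lay 48 bases before the start in Sst, 68 in Scg2, 72 in Chgb, 78 in Pcsk1 and 57 in Meg3. The letters were looked for after the values had been seen, in the 250 bases before each start, where 508 of 32851 windows in the table (1.55%) and 361 of 14452 tested genes with a window (2.5%) held them. Of the granule genes 3 of 13 with a window held the motif and of the islet hormones 1 of 6, which is a description of letters and not of binding. Pcsk1, the prohormone convertase of the regulated pathway, shows that the letters and the change did not go together in every member, since its signal was 6.36 and 5.89 in mESCs and 5.64 and 5.84 in PILECs and was not called (-0.38 ± 0.15, adjusted p = 0.0579). Conversely, Cadps (6.15), Scg5 (5.37), Scg3 (4.66) and Ptprn2 (4.51) rose, as log2 changes, without the letters in their windows. Another start of Meg3 lacked them too.

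The genes of peptide granules and hormone processing rose broadly in the menin-null line. Of 16 genes 13 were higher in PILECs, none was lower, and the median change was 1.80, where 28.9% of all genes rose and 36.1% fell. Scg2, a granin, went from 5.57 and 4.75 in mESCs to 11.70 and 11.85 in PILECs (6.62 ± 0.24), and Chgb, chromogranin B, from 5.59 and 5.75 to 11.18 and 11.39 (5.62 ± 0.17). Cadps, a priming factor of dense core vesicles, went from 4.12 and 4.23 to 10.12 and 10.54, and Cpe, the carboxypeptidase that trims prohormones, from 9.07 and 9.30 to 13.64 and 13.71. Chga rose by less, from 8.0 and 8.06 to 9.58 and 9.68. Of the members tied to beta cells, Slc30a8, the granule zinc transporter, was at 4.81 and 5.12 in mESCs and 5.26 and 5.02 in PILECs without a call. Neurons also use these genes, and 14 of the 16 were higher in menin-null PILEC array 2 than in array 1, by a median of 0.15 log2 units. The neuronal genes described below were higher in the same array, and the part of that difference in the granule result was not tested.

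Islet lineage transcription factors rose in part, and many of them also act in the nervous system. Of 15 factors 9 rose, 2 fell and 4 were not called. This count and those of the other lists in this paragraph stand beside the 28.9% of all genes that rose and 36.1% that fell. The largest rises were in Sox9, a factor of pancreatic and neural progenitors (6.94 and 6.53 in mESCs, 9.58 and 9.90 in PILECs), Myt1 (5.98 and 5.85, 8.73 and 9.02), Nkx2-2 (5.30 and 4.96, 7.37 and 7.64) and Insm1 (7.11 and 6.49, 9.09 and 9.17). Onecut1, an early pancreatic and hepatic factor, rose by 1.16 ± 0.10, and Isl1, Pax6, Nkx6-1 and Glis3 rose by 0.83, 0.79, 0.77 and 0.48. The call for Nkx6-1 was lost without menin-null PILEC array 2 (adjusted p = 0.0919). Pdx1, the master factor of the pancreas, was dim and lower (6.09 and 5.68 in mESCs, 5.16 and 5.57 in PILECs, adjusted p = 0.0328), and this call did not hold without menin-null mESC array 1 or PILEC array 1 (adjusted p up to 0.206). Mnx1 was dim too (-0.47 ± 0.17, adjusted p = 0.0397) and kept its call in 3 of the 8 fits that leave out an array. Neurod1 was at 8.73 and 8.96 in mESCs and 8.53 and 8.83 in PILECs, Neurog3 at 6.25 and 6.09 in mESCs and 6.22 and 6.11 in PILECs, and Ptf1a and Pax4 were also not called. With the median of the probe sets of each gene, Pdx1, Pax6 and the channel subunit Kcnj11 were not called. Of 9 genes of glucose sensing and secretion 4 rose, namely the gap junction gene Gjd2 (3.0 ± 0.18), Syt7 (2.09 ± 0.11), the dim glucose transporter Slc2a2 (0.75 ± 0.11) and the potassium channel subunit Kcnj11 (0.69 ± 0.15), while Abcc8, G6pc2, Ucn3, Glp1r and Trpm5 were not called. Of 11 exocrine and duct genes 6 fell and 1 rose, with elastase Cela1 at 6.96 and 7.05 in mESCs and 5.70 and 5.94 in PILECs, the carboxypeptidase Cpa1 dim at 5.14 and 5.30 in mESCs and 5.31 and 5.19 in PILECs, and the riser, Muc1, dim as well (5.77 and 5.94 in mESCs, 6.46 and 6.60 in PILECs).

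**Figure D2:**
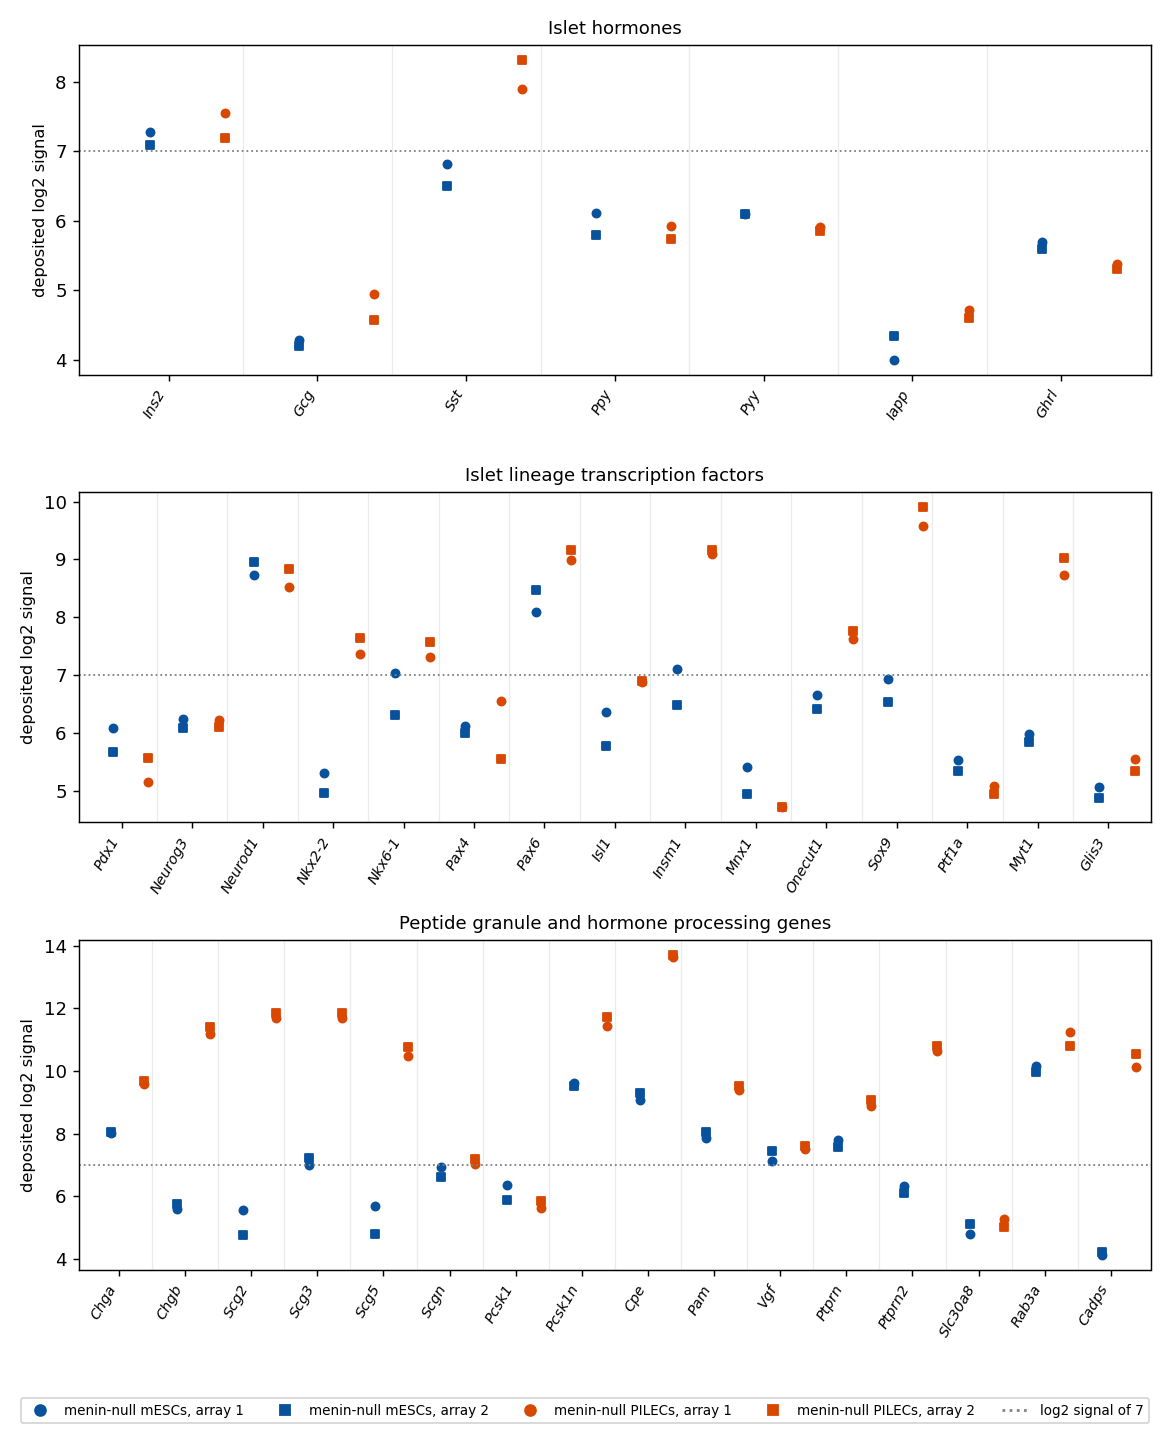
Deposited log2 signal (y axis) of islet hormones (top), islet lineage transcription factors (middle) and peptide granule genes (bottom) in the 2 menin-null mESC arrays and the 2 menin-null PILEC arrays, each point 1 array, with a dotted line at 7. Sst stands out among the hormones at 7.89 and 8.32 in PILECs, Pdx1 stays between 5.16 and 6.09, and most granule genes lie far higher in PILECs than in mESCs.

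Markers of neurons made up some of the strongest gains, and the genes of the islet lists that rose are in large part used by neurons too. Of 23 neuronal genes 20 rose, with a median change of 3.89, where 28.9% of all genes rose and 36.1% fell. Map2, a dendritic microtubule protein, went from 6.74 and 7.01 to 12.21 and 12.52, the synaptic protein Snap25 from 4.83 and 4.86 to 11.01 and 11.11, the glutamate transporter Slc17a6 from 4.80 and 4.89 to 11.05 and 11.36 and the GABA enzyme Gad1 from 5.12 and 5.74 to 11.72 and 11.95. These genes belong to excitatory and inhibitory neurons alike, and Gad1 is also found in beta cells. Nefh was the exception and fell from 10.28 and 10.21 to 5.97 and 6.28, and Stmn2 and the dopamine enzyme Th were not called. Of 18 genes of neural progenitors and glia 15 rose, among them Ptprz1 (4.71 ± 0.13), the oligodendrocyte lineage factor Olig1 (3.93 ± 0.19) and Gfap of astrocytes (1.95 ± 0.11), and none fell. Of 22 regional transcription factors of the nervous system 18 rose, from the forebrain genes Dlx1 (4.28 ± 0.21), Lhx2 (3.54 ± 0.14) and Six3 (2.25 ± 0.08) to Irx3 (3.86 ± 0.13) and the dorsal factor Pax3 (1.67 ± 0.12), while Gbx2 (-5.20 ± 0.20) and En2 (-0.91 ± 0.15) fell. Between the menin-null PILEC arrays, 21 of 23 neuronal genes and 18 of 22 regional factors were higher in array 2, by medians of 0.191 and 0.181.

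Mesenchymal genes rose as well. Of 25 genes of fibroblasts and matrix, 22 rose and 1 fell, with a median change of 3.11. Postn, periostin, went from 5.88 and 5.47 to 11.18 and 10.60, Col1a1 from 6.58 and 6.86 to 11.57 and 11.06 and the receptor Pdgfra from 6.85 and 7.0 to 10.16 and 9.91. The surface glycoprotein Thy1 was the member that fell (-0.38 ± 0.08), and Fn1 and Thbs1 were not called. Of 10 genes of the epithelial to mesenchymal transition 9 rose, with N-cadherin, Cdh2, at 4.20 ± 0.21 and Cdh11 at 7.12 ± 0.13. Genes of epithelia went the other way, with 11 of 14 lower. E-cadherin, Cdh1, went from 11.84 and 11.81 to 6.63 and 6.66 and Epcam from 12.41 and 12.49 to 8.06 and 7.91, whereas the trophectoderm and neuronal factor Gata3 rose from 5.60 and 4.23 to 7.28 and 7.54. Striated muscle genes were mixed (13 of 30 higher, 8 lower) and smooth muscle genes mostly fell (8 of 12 lower, 2 higher). Over all genes 28.9% rose and 36.1% fell. Between the menin-null PILEC arrays, 22 of 25 matrix genes, 25 of 30 striated muscle genes, 10 of 12 smooth muscle genes and 16 of 18 genes of endothelium and blood were higher in array 1, the reverse of the neuronal genes. The part of this split between the cultures in the results for each list was not tested.

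Genes of IGF ligands, receptors, binding proteins and signalling rose without exception in the menin-null line, and all 13 measured members were called. Among all genes 28.9% rose and 36.1% fell. Igf2, the fetal growth factor, went from 8.36 and 8.14 in mESCs to 14.48 and 14.29 in PILECs (6.13 ± 0.11) and Igf1 from 5.64 and 5.45 to 10.74 and 10.53 (5.09 ± 0.15). The binding proteins Igfbp5 (7.14 ± 0.10), Igfbp1 (4.62 ± 0.13) and Igfbp4 (4.28 ± 0.13) rose far more than Igfbp2 (0.31 ± 0.08). Igf2 and its clearance receptor Igf2r (0.52 ± 0.10) are imprinted, meaning that mainly 1 parental copy is expressed. Of 23 imprinted genes outside the Dlk1-Meg3 locus, Igf2 and Igf2r included, 15 rose and 5 fell, with Nnat from 6.93 and 7.03 to 14.28 and 14.38, Ndn from 9.83 and 9.96 to 14.06 and 14.05 and Peg3 from 10.27 and 10.37 to 13.66 and 13.57. The placental growth restrictor Phlda2 fell from 12.01 and 11.90 to 6.62 and 6.35 and the amino acid transporter Slc38a4 from 10.97 and 11.11 to 7.10 and 6.97.

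Of 17 genes of menin and the MLL complexes 3 rose and 9 fell, where 28.9% of all genes rose and 36.1% fell. Kmt2a, which encodes MLL1, rose by 1.02 ± 0.09, Kmt2b was not called (-0.17 ± 0.09, adjusted p = 0.153), and the shared core subunits Dpy30 (-2.29 ± 0.11), Wdr5 (-1.97 ± 0.08) and Ash2l (-1.97 ± 0.09) fell. Of 17 Polycomb genes, whose products place the opposing repressive mark, 9 fell and 6 rose, with Eed (-2.61 ± 0.09) and Ezh2 (-1.24 ± 0.08) among the falls and Bmi1 (1.38 ± 0.17) and Ring1 (1.69 ± 0.13) among the rises.

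The same course was compared with that of the wild-type line, where 11477 genes (63.1%) changed, 5049 (27.8%) upward and 6428 (35.3%) downward. The changes in the 2 lines share no array, and across genes the menin-null change followed the wild-type change with a correlation of 0.968 and a slope of 0.999, a description in which genes are not independent replicates. A total of 4494 genes rose and 5721 fell in both lines, and 52 genes were called in opposite directions. A test of the difference itself, the change in menin-null cells minus the change in wild-type cells, called 557 genes (3.06%), of which 272 (1.50%) had a higher change in menin-null cells and 285 (1.57%) a lower one. Counts of called differences in the gene lists below stand beside these shares. With 1 array left out, its group held a single array, which adds nothing to the estimate of the spread. Under these fits the count of called genes changed. It was 66 and 75 without wild-type mESC array 1 or 2, 72 and 75 without wild-type PILEC array 1 or 2, 245 and 209 without menin-null PILEC array 1 or 2, and 618 and 800 without menin-null mESC array 1 or 2. All 8 fits kept the call of 50 of the 557 genes, 31 with a higher and 19 with a lower change, and in what follows a difference called over all 8 arrays is given with the highest adjusted p among those 8 fits, written as at most that value. Of the genes named below with a call in all 8 fits, Meg3, Mirg, Igfbp1, S100g, Hoxc8, Gata4, Cnpy1, Adipoq, Krt18, Nnat and Rhox5 were also called without variance moderation. The others, such as Hoxb6, Lama1, Col4a1, Col4a2, Sox17, Mest, Ccn2 and Tnnt1, were not.

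A difference between the changes can come from the mESCs or from the PILECs. Of the 272 genes with a higher change in menin-null cells, 154 were called lower in menin-null mESCs (2.36% of all genes were), and 128 were called higher in menin-null PILECs (2.26% of all genes were), 22 of them both. Of the 285 with a lower change, 207 were called lower in menin-null PILECs (4.42% of all genes were) and 67 higher in menin-null mESCs (1.29% of all genes were), 6 of them both. These levels enter the difference, so the counts describe where it lies and are no separate test.

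**Figure D3:**
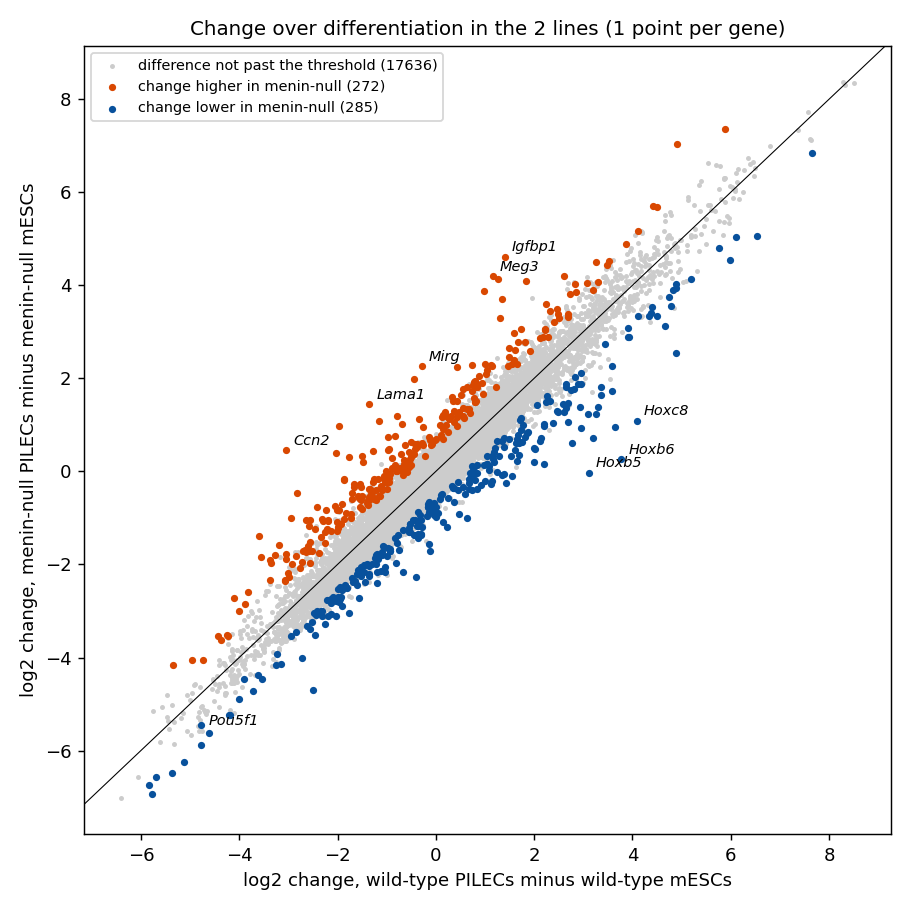
Log2 change from mESCs to PILECs in the menin-null line (y axis) against that in the wild-type line (x axis), with 1 point per gene, 18193 genes, and a line where both are equal. The 272 genes above and the 285 below the diagonal whose difference passed the test are coloured, with Igfbp1 (3.21) and Ccn2 (3.50) far above the line and Hoxb6 (-3.50) and Hoxb5 (-3.14) far below it.

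The Dlk1-Meg3 locus, an imprinted region with a paternally expressed growth regulator and several maternally expressed noncoding RNAs, rose further in menin-null than in wild-type cells, and the lines differed at the mESC stage. Meg3, the noncoding RNA whose promoter is printed above, was at 9.93 and 9.98 in menin-null mESCs and 12.94 and 12.90 in wild-type mESCs, and at 14.17 and 14.12 in menin-null PILECs and 14.06 and 14.10 in wild-type PILECs. The mESC groups of the 2 lines were far apart and the PILEC groups lay close together, and the change was 4.19 ± 0.08 in menin-null and 1.16 in wild-type cells, a difference of 3.03 ± 0.11 (adjusted p = 9.03e-05, at most 0.00469). Mirg, the host of a microRNA cluster, rose from 7.54 and 7.35 to 9.72 and 9.68 in menin-null cells but fell by 0.29 log2 units in wild-type cells, a difference of 2.54 ± 0.13 (adjusted p = 3.69e-04, at most 0.00699). Rian, a host of small nucleolar RNAs, went from 7.10 and 7.39 to 11.46 and 11.29 with a difference of 2.86 ± 0.38 (adjusted p = 0.0130, at most 0.0649), and Dlk1 from 7.34 and 7.43 to 11.82 and 11.35 with a difference of 1.58 ± 0.20 (adjusted p = 0.0126, at most 0.0776). The calls for Rian and Dlk1 were lost in some of the fits. Dlk1 was read by a probe set marked as prone to cross-hybridisation, and the other probe set of the gene gave a difference of 0.29 (adjusted p = 0.439). With that other probe set the rise of Dlk1 in menin-null cells was not called either. Among the 23 other imprinted genes the difference was called higher for 5 (Igf2r, Magel2, Mest, Nnat and Plagl1) and lower for 2 (Nap1l5 and Slc38a4, the latter at -1.29). Igf2r had a difference of 0.90 ± 0.14 (adjusted p = 0.0222), from 0.78 to 1.02 when 1 array was left out. Its call was lost in some of these fits and without variance moderation. Igf2r differed at the PILEC stage, where menin-null cells were 0.99 log2 units higher (adjusted p = 0.00306). In mESCs it did not differ (0.09, adjusted p = 0.708). Mest rose from 8.69 and 8.79 to 13.09 and 12.56 (difference 2.26 ± 0.24, at most 0.0483), Nnat had a difference of 1.46 ± 0.12 (at most 0.0284) and Plagl1 one of 2.13 ± 0.22 (at most 0.0483), but Plagl1 was read by a probe set marked as prone to cross-hybridisation, and its other 2 probe sets gave differences of -0.63 and -0.45. In the opposite direction, Nap1l5 rose from 5.50 and 5.79 to 7.05 and 7.01 in menin-null cells and to 9.32 and 9.17 in wild-type PILECs, a difference of -1.90 ± 0.17 (adjusted p = 0.00276, at most 0.0360).

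Several basement membrane genes rose in menin-null cells where the wild-type line lowered them or raised them less. Of 15 genes of parietal endoderm and basement membrane 13 rose in the menin-null line, against 8 in the wild-type line. Among all genes 28.9% rose in the menin-null line and 27.8% in the wild-type line. The difference was called for 6 of the 15, all higher, against 1.50% of all genes. Lama1, the laminin chain of the first embryonic basement membrane, went from 9.35 and 9.50 to 11.07 and 10.66 in menin-null cells while wild-type cells went from 10.03 and 10.03 to 8.65 and 8.70, a difference of 2.80 ± 0.19 (adjusted p = 0.00138, at most 0.0191). The collagen IV chains followed, with Col4a2 from 8.85 and 8.93 to 12.82 and 12.36 against 10.76 and 10.85 in wild-type PILECs (difference 2.35 ± 0.20, at most 0.0372) and Col4a1 at a difference of 1.99 ± 0.20 (at most 0.0483). Every menin-null PILEC array lay above every wild-type PILEC array for these 3 genes. For Lama1 and Col4a2, genotypes without overlap at either stage were a condition of the choice, so this is no separate support. For Lamb1 (1.58 ± 0.20, at most 0.0702), Lamc1 (1.44 ± 0.20, at most 0.0841) and Sparc (1.13 ± 0.19, at most 0.122) the call was lost in some of the 8 fits, and a dimmer probe set of Lamc1 fell by 0.94 in menin-null cells where the one used rose by 0.46. All 15 genes of the list were higher in menin-null PILEC array 1 than in array 2, by a median of 0.413 log2 units, and without array 1 the differences of Lama1, Col4a1 and Col4a2 were still called. Tinagl1, a protein found in basement membranes, had a difference of 1.98 ± 0.16 (at most 0.0284) and was chosen after its values were seen.

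Endoderm transcription factors shared this pattern in part. The difference was called for 4 of 12, all higher. Gata4 was at 7.32 and 7.40 in menin-null mESCs and 7.70 and 7.68 in menin-null PILECs, whereas wild-type cells went from 7.83 and 7.88 to 6.32 and 6.39, a difference of 1.84 ± 0.11 (adjusted p = 8.64e-04, at most 0.0119). Sox17 went from 7.26 and 7.26 to 8.02 and 7.95 against 6.41 and 6.77 in wild-type PILECs (difference 1.70 ± 0.18, at most 0.0372). Sox7 (1.21 ± 0.16, at most 0.0816) and Foxa2 (0.94 ± 0.13, at most 0.0912) lost their calls in some fits, and with the median of its probe sets Sox7 was not called. Of 16 markers of liver and visceral endoderm 2 rose, Afp (0.80 ± 0.16) and Ttr, and 5 fell in menin-null cells, where 28.9% of all genes rose and 36.1% fell. Alb was at 5.44 and 5.10 in mESCs and 5.21 and 4.98 in PILECs. The difference was called for Cubn, an endocytic receptor of visceral endoderm, which fell less than in wild-type cells (1.02 ± 0.21, at most 0.159, kept in 1 of the 8 fits), and for Ttr. Ttr, the thyroid hormone carrier of visceral endoderm and choroid plexus, rose much less than in wild-type cells (8.55 and 8.39 in menin-null and 10.62 and 10.73 in wild-type PILECs, difference -2.47 ± 0.18, at most 0.0250).

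Of 14 epithelial genes 5, all keratins or claudins, fell less in menin-null than in wild-type cells. Krt18 went from 9.45 and 9.58 to 7.63 and 7.71 in menin-null cells and from 10.35 and 10.36 to 6.77 and 6.82 in wild-type cells, a difference of 1.71 ± 0.12 (adjusted p = 0.00138, at most 0.0191). In this gene the menin-null line was lower as mESCs and higher as PILECs, with no overlap of arrays at either stage. The same order was seen in Krt8 (difference 1.60 ± 0.19, at most 0.0520), Krt19 (1.31 ± 0.13, at most 0.0394) and Cldn6 (1.27 ± 0.13, at most 0.0475). Cldn7 was the fifth member called, at 0.68 ± 0.14, with an adjusted p of up to 0.188 in the 8 fits.

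Several other genes differed as well. Igfbp1, a binding protein that modulates IGF action, rose from 5.04 and 4.95 to 9.52 and 9.70 in menin-null cells and reached 6.69 and 6.36 in wild-type PILECs, a difference of 3.21 ± 0.18 (adjusted p = 5.74e-04, at most 0.00571). Ccn2, connective tissue growth factor, fell by 3.05 log2 units in wild-type cells but was at 9.67 and 9.83 in menin-null mESCs and 10.63 and 9.77 in menin-null PILECs (0.46 ± 0.25, adjusted p = 0.140), and the difference of 3.50 ± 0.35 was the largest with a higher change (at most 0.0483). For Ccn2 the 2 menin-null PILEC arrays were further apart than the means of the 2 cell types in that line. S100g, a vitamin D dependent calcium binding protein, rose from 5.62 and 5.66 to 9.36 and 9.69 (2.91 ± 0.16, at most 0.0105), and Srgn, the proteoglycan of secretory granules in blood cells, from 9.41 and 9.55 to 10.73 and 10.19 (2.95 ± 0.23, at most 0.0284). The 15 largest differences in this direction also held Cdhr1 (2.44 ± 0.18, at most 0.0144), the pepsinogen gene Pga5 (2.24 ± 0.18, at most 0.0275), Glipr1 (2.44 ± 0.34, at most 0.0901), Usp17la (2.20 ± 0.22, at most 0.0483) and Gm20767 (2.36 ± 0.25, at most 0.0527). Usp17la and Gm20767 differed at the mESC stage, with menin-null below wild-type arrays, and were dim in PILECs of both lines, whereas Cdhr1 and Pga5 were higher in menin-null PILECs.

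**Figure D4:**
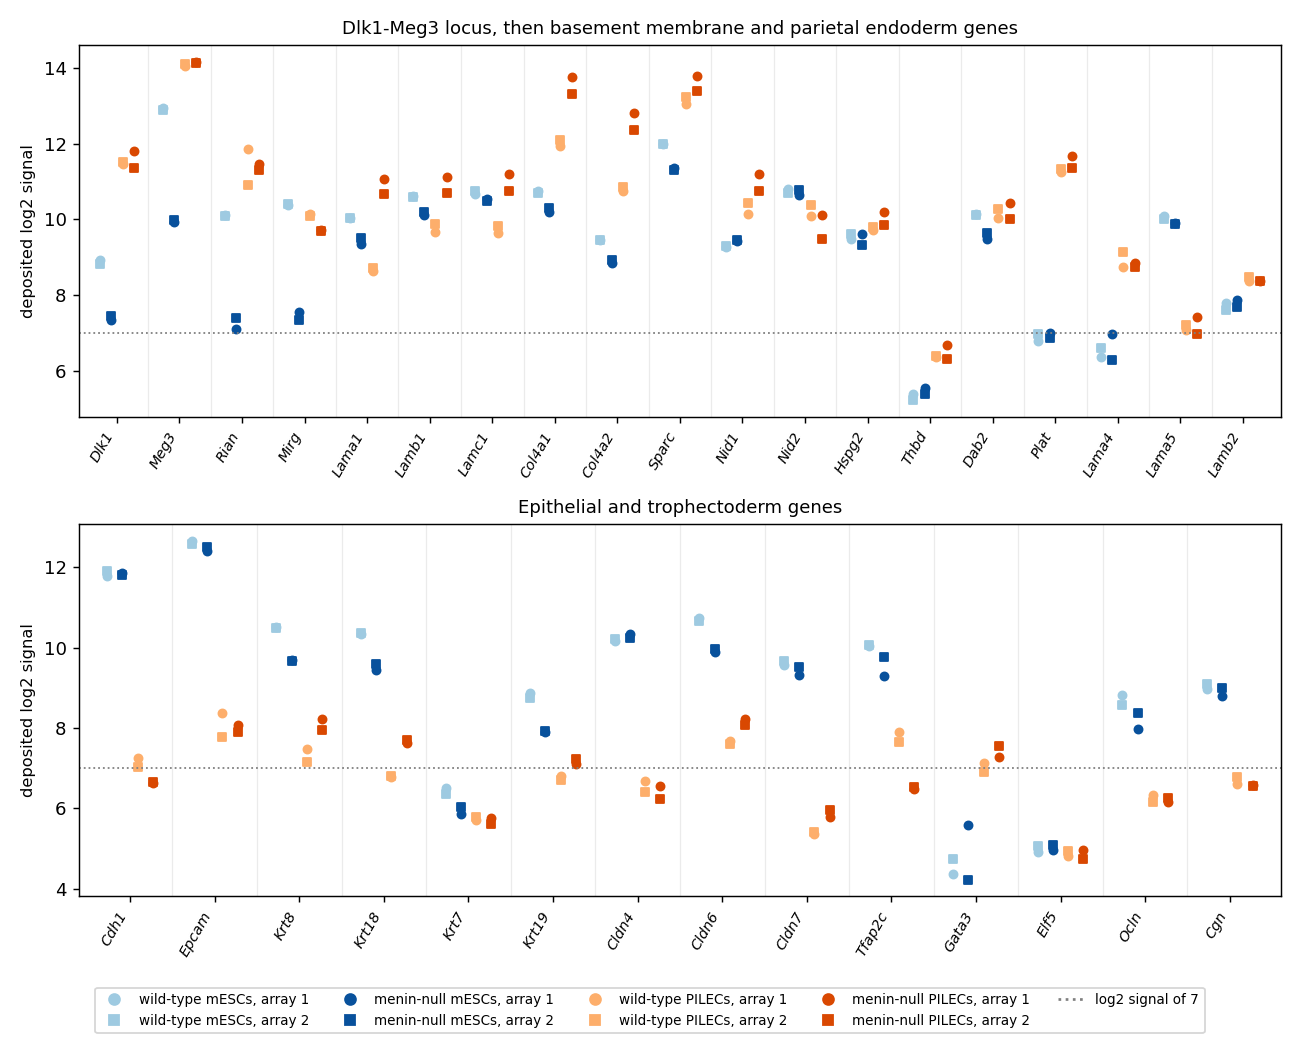
Deposited log2 signal (y axis) of the Dlk1-Meg3 locus and of basement membrane genes (top) and of epithelial genes (bottom) on all 8 arrays, with 1 point per array, colour for group and shape for array 1 or 2, and a dotted line at 7. Meg3 is low in menin-null mESCs (9.93 and 9.98) and level in PILECs, Col4a2 is highest in menin-null PILECs (12.82 and 12.36), and Krt18 changes its order between the stages.

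Hox genes, which give cells their position along the body axis, showed few changes in the menin-null line. Of 33 measured Hox genes 5 rose, 7 fell and 21 were not called, and the median change was 0.11. In the wild-type line 20 rose and 4 fell. Among all genes 28.9% rose and 36.1% fell in the menin-null line, and 27.8% and 35.3% in the wild-type line. The difference was called for 14, all of them lower in menin-null cells, where 1.57% of all genes had a called lower change. Hoxb6 was at 5.24 and 5.26 in menin-null mESCs and 5.45 and 5.57 in menin-null PILECs, while wild-type PILECs reached 9.27 and 8.80, a difference of -3.50 ± 0.24 (adjusted p = 0.00138, at most 0.0127). Hoxc8 rose from 4.18 and 4.24 to 5.21 and 5.39, and wild-type PILECs were at 8.36 and 8.14 (-2.99 ± 0.15, at most 0.00604). Hoxc4 was at 5.62 and 6.01 in menin-null mESCs and 6.01 and 6.03 in menin-null PILECs, against 7.91 and 7.83 in wild-type PILECs (-1.80 ± 0.18, at most 0.0483). For these 3 genes both wild-type PILEC arrays lay above all 6 other arrays. Hoxb6 and Hoxc8 were named on condition that the genotypes did not overlap at either stage, so for them this is no separate support. Hoxb5 (-3.14 ± 0.39, at most 0.0538) and Hoxb2 (-2.18 ± 0.26, at most 0.0702) lost their calls in 2 of the 8 fits, and Hoxd10 (-1.44 ± 0.19), Hoxc10 (-1.43 ± 0.27), Hoxc6 (-1.34 ± 0.27), Hoxd3 (-1.20 ± 0.20), Hoxa4 (-1.14 ± 0.16), Hoxa2 (-0.97 ± 0.15), Hoxb3 (-0.90 ± 0.15) and Hoxb4 (-0.89 ± 0.19) in at least 4, with adjusted p up to 0.0730, 0.143, 0.178, 0.119, 0.0824, 0.0990, 0.128 and 0.181. Hoxb9 (-1.54 ± 0.31) kept its call in none of them (at most 0.160). The antisense transcript Hoxd3os1 also rose less, with 5.83 and 5.40 in menin-null and 8.28 and 7.56 in wild-type PILECs (-2.01 ± 0.34, at most 0.101). In menin-null cells 25 of the 33 Hox genes were dim at both stages.

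The rises among Hox genes in menin-null cells were in Hoxd8 (1.43 ± 0.14), Hoxb1 (1.28 ± 0.26), Hoxc8 (1.09 ± 0.10), Hoxb3 (0.78 ± 0.11) and Hoxb2 (0.60 ± 0.19). Hoxd8 went from 5.51 and 5.68 to 7.20 and 6.85 and Hoxb1 from 4.92 and 4.72 to 6.10 and 6.10, and their changes in wild-type cells, 1.37 and 1.26, gave no called difference. The call for Hoxb2 did not hold without menin-null mESC array 2 or PILEC array 2 (adjusted p up to 0.134). The partners of Hox proteins rose in both lines, with Meis2 from 5.65 and 5.70 to 10.18 and 10.49 and Pbx3 from 8.77 and 8.92 to 11.95 and 12.14, and 6 of 8 cofactors higher in menin-null cells. Meis1 was the cofactor whose difference was called (-1.15 ± 0.20, at most 0.120).

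**Figure D5:**
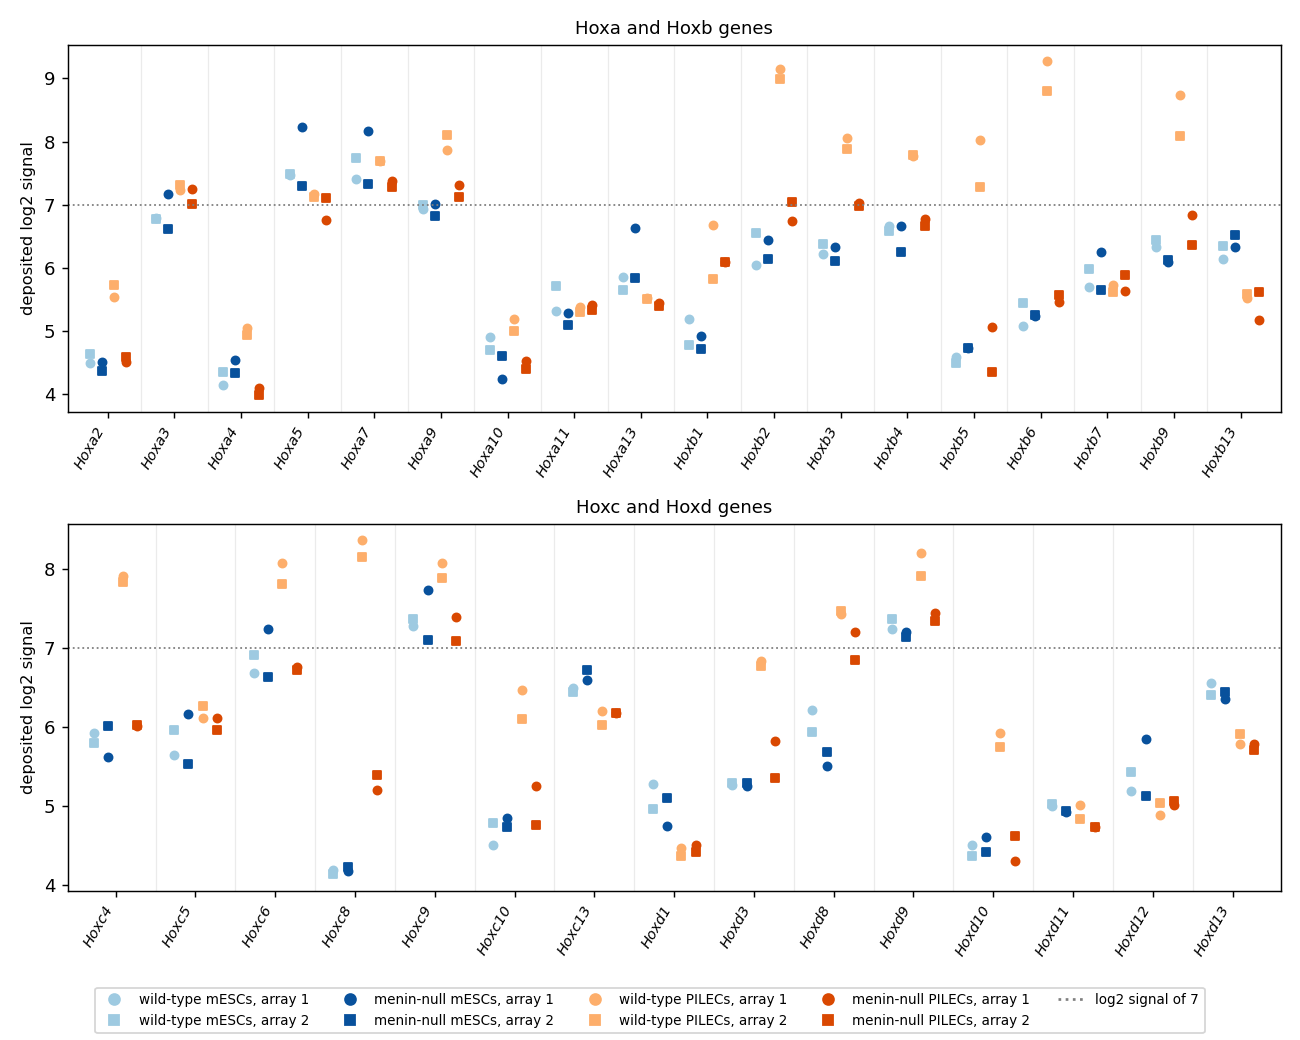
Deposited log2 signal (y axis) of the 33 measured Hox genes on all 8 arrays, with 1 point per array, colour for group and shape for array 1 or 2, and a dotted line at 7. In Hoxb6, Hoxc4 and Hoxc8 the wild-type PILEC arrays stand alone between 7.83 and 9.27, while the menin-null PILEC arrays lie between 5.21 and 6.03 near the mESC arrays.

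A part of the muscle genes also had a lower change in menin-null cells. The difference was called for 9 of 30 striated muscle genes, all lower. Myog, the regulator of muscle fiber formation, was at 7.40 and 6.78 in menin-null and 9.24 and 9.52 in wild-type PILECs, from 6.06 and 6.23 in menin-null and 5.86 and 5.62 in wild-type mESCs (-2.69 ± 0.29, at most 0.0514). Cardiac actin Actc1 was at 8.90 and 8.43 in menin-null and 11.29 and 11.60 in wild-type PILECs (-2.33 ± 0.29, at most 0.0712), embryonic myosin Myh3 had a difference of -2.01 ± 0.24 (at most 0.0515) and the light chain Myl4 one of -1.86 ± 0.27 (at most 0.0950). Tnnt1 was the member that kept its call in all 8 fits (-1.57 ± 0.14, at most 0.0250). Tnnt2 (-1.71 ± 0.36, at most 0.195) gave 0.17 in its probe set not marked as prone to cross-hybridisation. The adipocyte hormone Adipoq was at 4.83 and 5.01 in menin-null mESCs and 5.14 and 5.03 in menin-null PILECs against 7.45 and 7.57 in wild-type PILECs (-2.04 ± 0.14, at most 0.0190). Of 25 matrix genes the difference was called for 2, in opposite directions, Thy1 (0.62, at most 0.155) and Twist1 (-0.57, at most 0.181). Thy1 kept its call in 1 of the 8 fits and Twist1 in none.

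Of 22 regional factors of the nervous system 5 rose less or fell further in menin-null cells, Zic4 (-1.85 ± 0.31, at most 0.124), En2 (-1.38 ± 0.22, at most 0.107), Lhx2 (-1.24 ± 0.19, at most 0.103), Dbx1 (-1.19 ± 0.23, at most 0.161) and Zic1 (-0.80 ± 0.15, at most 0.148), and none kept its call in all 8 fits. The midbrain gene Cnpy1 fell further, from 9.58 and 9.68 to 5.03 and 4.82 against 6.74 and 6.61 in wild-type PILECs (-2.20 ± 0.14, at most 0.0164). Bmp4, a secreted ligand of mesoderm and stem cells, went from 10.59 and 10.82 in menin-null mESCs to 8.59 and 8.28 in PILECs, while wild-type cells went from 9.57 and 9.50 to 9.11 and 9.14 (-1.85 ± 0.18, at most 0.0475). Its target Id1 had a difference of -1.13 ± 0.17 (at most 0.103). Of the pluripotency genes 9 of 30 fell further in menin-null cells, such as Nr0b1 (-1.17 ± 0.15, at most 0.0664), Zfp42 (-1.05 ± 0.14, at most 0.0695) and Nanog (-1.01 ± 0.15, at most 0.0891), and each of these 3 lost its call in some fits. The change was also lower for 5 of 19 mitosis genes (Cdk1, Ccnb2, Bub1, Ttk and Kif20a) and 4 of 20 replication genes (Cdc6, Gins1, Gins2 and Rrm1), with Cdk1 at -0.71 ± 0.12 (at most 0.114). None of these 9 genes kept its call in more than 3 of the 8 fits. Of 23 neuronal genes the change was higher for Gap43 (0.99 ± 0.13, at most 0.0776) and Mapt (1.29 ± 0.16, at most 0.0733) and lower for Elavl3 (at most 0.126), Stmn3 (at most 0.134) and Tubb3 (at most 0.148), and of 18 genes of progenitors and glia it was higher for Gfap (1.15 ± 0.16, at most 0.0825). No islet hormone, granule gene or glucose sensing gene was called in the test of the difference, and among islet lineage factors Onecut1 alone was (0.73 ± 0.15, at most 0.180).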

How the data were processed

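RNA (6 µg) of 2 cultures of each of 4 groups had been hybridised to the Affymetrix Mouse Genome 430 2.0 array. The authors deposited log2 signals of 45101 probe sets, between 3.26 and 15.16. RMA and Partek are named in the processing notes of the submitters, the methods of the study state that the data were normalized with MAS 5.0, which of these made the deposited values is not settled here, and software versions are not given in the sources used here. After 64 control probe sets, 9160 without a gene symbol and 932 with several were left out, 34945 with 1 symbol remained, covering 18193 genes. Symbols came from the platform annotation, and 34741 probe sets matched current symbols by Entrez identifier with none changed. Each gene was read by the probe set with the highest mean over all 8 arrays, and 9010 genes had more than 1.

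Groups were fitted with limma 3.58.1 in R 4.3.3 (lmFit and eBayes on all 8 arrays, 4 group means, no covariate), and p-values were Benjamini-Hochberg adjusted over 18193 genes, with 0.05 as the threshold. An exact permutation of 2 arrays against 2 cannot go below p = 0.333. Only the spread between 2 cultures a group enters the p-values, and differences among lines of 1 genotype are not covered. A gene was called dim under 7 log2 units. The 15 largest called changes and differences in each direction are named, where the arrays did not overlap (between the cell types for changes, between the genotypes in mESCs or in PILECs for differences) and the highest group mean was at least 7, with members of 42 gene lists. The members and lists were chosen with earlier results of these data known. Promoter sequences are RefSeq, GRCm38.p6. Fits were tested on simulated data. Figures were drawn with matplotlib 3.10.9.

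Array numbers were checked for pairing. Deviations from group means of same-numbered arrays correlated between -0.28 and 0.21 over 6 pairs of groups, with the highest between menin-null mESCs and menin-null PILECs. The numbers were not used as pairs in the main fit, but with 2 arrays a group this check cannot settle whether they pair. Alternatives were quantile scaling, leaving out dim genes, the median of the probe sets, leaving out probe sets marked as prone to cross-hybridisation, no variance moderation, an intensity trend, a replicate block, the threshold of the study (2-fold and an unadjusted p of 0.005), the menin-null arrays alone and leaving out each array. That mark was set by identifiers ending in s_at, x_at or a_at, a rule by name that does not measure cross-hybridisation.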

Additional observations from a re-analysis of the deposited data

Results flagged for a closer look

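The change from mESCs to PILECs differed between the menin-null and the wild-type line for 272 genes with a higher and 285 with a lower change in menin-null cells, by the limma test of the difference of the changes (adjusted p under the threshold). The values below are log2 differences, menin-null change minus wild-type change, of the 15 largest in each direction, and most of the 557 calls did not hold when 1 wild-type array was left out.

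Higher changes in menin-null cells were seen in Ccn2 (3.50), Igfbp1 (3.21), Srgn (2.95), S100g (2.91), Lama1 (2.80), Col4a2 (2.35), Pga5 (2.24), Glipr1 (2.44) and Cdhr1 (2.44). For these the menin-null PILECs were higher than the wild-type PILECs. Another group, Meg3 (3.03), Rian (2.86), Mirg (2.54), Mest (2.26), Gm20767 (2.36) and Usp17la (2.20), was lower in the mESCs of the menin-null line. Among the imprinted RNAs Meg3, Rian and Mirg the PILECs of the 2 lines lay much closer together.

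Lower changes in menin-null cells were seen in Hox genes, with Hoxb6 at -3.50, Hoxb5 at -3.14, Hoxc8 at -2.99, Hoxb2 at -2.18 and the antisense gene Hoxd3os1 at -2.01. Muscle genes formed another group, with Myog at -2.69, Actc1 at -2.33, Myh3 at -2.01 and Myl4 at -1.86. The remaining genes were Ttr (-2.47), Cnpy1 (-2.20), Adipoq (-2.04), Nap1l5 (-1.90), Zic4 (-1.85) and Bmp4 (-1.85).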

How the results depend on the processing

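The count of genes that changed in menin-null cells stayed within 1.5 times of 11830 under every alternative except the threshold of the study, which called 5755 (2462 higher and 3293 lower), and it was 10840 to 11974 when 1 array was left out. The difference between the lines depended more on the fit. Against 557 genes (272 higher and 285 lower), leaving out dim genes gave 875 (503 lower), no variance moderation 47 (20 and 27), an intensity trend 1442 (520 and 922, so 36.1% higher against 48.8%) and the threshold of the study 248 (129 and 119). The replicate block gave 286 (169 and 117, 59.1% higher), of which 281 were among the 557. Whether arrays of the same number shared a batch was not tested. Leaving out 1 array gave 66 to 800 genes, 37 to 441 higher and 29 to 359 lower. Of 233 named changes 190 lost no call under any alternative, and of 102 named differences 12 lost none. These 190 include changes that were not called in the main fit and gained a call under an alternative, such as Stmn2, Pcsk1 and Men1. The 12 include the difference of Sst, which was not called in the main fit and so had no call to lose. Reversed in sign were the changes of Iapp without probe sets prone to cross-hybridisation (-0.21), of Lamc1 (-0.24) and of Ngfr (0.047) with the median of the probe sets, and the differences of Tnnt2 without such probe sets (0.17) and of Plagl1 with the median (-0.26) and without such probe sets (-0.45), each set by which probe sets were read. Other calls also rested on 1 probe set, and with the median Pdx1 changed by -0.25, Pax6 by 0.16, Kcnj11 by 0.24, Gata4 by 0.20 and Sox7 by 0.05, none past the threshold. Quantile scaling moved the median change of all genes from -0.07 to -0.10. Signals in or near the dim range limit what can be said of Ins2, Gcg and Pdx1.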

Other observations

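Genes of the germline fell with the pluripotency genes in menin-null cells, where 36.1% of all genes fell and 28.9% rose. Of 12 measured, 10 were lower in PILECs and none was higher, with Rhox5, a homeobox gene on the X chromosome, going from 10.64 and 10.62 to 9.64 and 9.60 and the germ cell helicase Ddx4 from 9.01 and 9.29 to 4.27 and 4.41. The difference between the lines was called for Rhox5 (1.29 ± 0.10, at most 0.0284 when 1 array was left out) and Mael (1.20 ± 0.24, at most 0.151). Of 6 genes around Lin28, which block differentiation in many embryonic cells, 5 fell, with Lin28a from 12.03 and 12.05 to 8.30 and 8.36 and the chromatin protein Hmga2 from 8.72 and 8.85 to 8.08 and 7.96.

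Signalling genes moved in both directions, where 28.9% of all genes rose and 36.1% fell. Of 15 genes of BMP ligands and Id proteins 9 rose and 5 fell, with Bmp7 at 1.95 ± 0.11 and Bmp4 at -2.27 ± 0.12, and the 4 called differences were all lower in menin-null cells (Bmp4, Id1, Id4 and Smad6). Of 14 Notch genes 10 rose and 3 fell, with the neural target Hes5 at 3.42 ± 0.18 and Hes1 at -1.17 ± 0.09. Of 14 Wnt targets and antagonists 6 rose and 3 fell, and the secreted antagonists Sfrp1 (0.70 ± 0.13) and Sfrp2 (1.48 ± 0.09) rose, both by less than in wild-type cells, while Lef1 had a difference of 0.79 ± 0.11. With 1 array left out, adjusted p rose to 0.172 for Sfrp1, 0.130 for Sfrp2 and 0.0868 for Lef1.

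Stress and metabolic genes were mixed, and their counts stand beside the 28.9% of all genes that rose and the 36.1% that fell. Of 14 genes of the unfolded protein and amino acid response 7 fell and 4 rose, with the pseudokinase Trib3 at -2.12 ± 0.19 and asparagine synthetase Asns at -1.43 ± 0.08. Of 10 p53 targets 6 fell and 1 rose, and of 17 hypoxia and glycolysis genes 7 rose and 4 fell. Of 12 genes of cholesterol synthesis 5 rose and 3 fell, and all 12 were higher in menin-null PILEC array 2 than in array 1. Of 11 ribosomal protein genes 7 fell, by little (median -0.24), and of 3 Y-linked genes 2 fell.

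Of 18 genes of endothelium and blood 6 rose and 6 fell, and of 8 adipocyte genes 3 rose and 1 fell, near the 28.9% of all genes that rose and 36.1% that fell for the former. The endothelial receptor Kdr was at 7.06 and 7.22 in mESCs and 8.08 and 7.80 in PILECs, and the adhesion protein Pecam1, which stem cells also carry, fell from 8.87 and 9.08 to 6.15 and 5.67. Smooth muscle actin Acta2 fell from 9.15 and 9.07 to 8.68 and 8.16, whereas Myh11 rose from 5.64 and 5.44 to 5.92 and 6.11.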
